A study of Mus musculus with 2 samples.

Results

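The Ms4a family was followed through 8 of its genes, Ms4a1, Ms4a4a, Ms4a4b, Ms4a4c, Ms4a6b, Ms4a6c, Ms4a6d and Ms4a7, in immune cells of a mouse melanoma. The members were taken by gene symbol from the 31055 gene features of the count matrix, which held 19 Ms4a genes in all. Their unique molecular identifiers (UMIs, each standing for 1 captured RNA molecule) were counted in 4236 cells that had at least 1000 gene UMIs, 500 genes and at most 10% mitochondrial UMIs. Over these cells the 8 genes gave 310412 UMIs, which was 0.281% of all gene UMIs.

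The cells came from melanoma tissue that B78ChOVA cells, a mouse melanoma line, formed under the skin of the flank over 16 days after injection in Matrigel. Live sections of about 160 µm were marked with spatial barcodes, and immune cells were sorted from them and measured with 10x Genomics droplets. The 2 samples were a gene expression and a spatial barcode library of the same cells, so there was 1 biological sample, with 1 condition and no untreated arm. The labels name no strain, genotype or number of mice, and do not say which tumour area each spatial barcode (ZC1 to ZC3) marked.

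MS4A proteins cross the plasma membrane several times, in the manner of CD20, and many of them sit beside immune receptors and alter their signalling. MS4A1 is CD20 itself, a B cell surface protein that is linked to the B cell receptor and is the target of therapeutic antibodies. MS4A4B is known from T cells, where it was found with the costimulatory receptor GITR, while MS4A4A and MS4A7 are known from macrophages, and variation at the human MS4A locus has been linked to the microglial receptor TREM2.

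All 8 genes lie in 355 kb of chromosome 19 of GRCm38 in the GENCODE vM21 annotation, from 11249675 to 11604849, among 12 protein-coding genes of which 11 are Ms4a genes. In order along the chromosome they are Ms4a1 at chr19:11249675-11266241, Ms4a7 at chr19:11321039-11336146, Ms4a4a at chr19:11375523-11392790, Ms4a4c at chr19:11404770-11427246, Ms4a4b at chr19:11443553-11467055, Ms4a6c at chr19:11469366-11482192, Ms4a6b at chr19:11516512-11531256 and Ms4a6d at chr19:11586604-11604849. Ms4a1, Ms4a7 and Ms4a6d are on the minus strand and the other 5 on the plus strand. Ms4a1, Ms4a4c, Ms4a6c and Ms4a6b overlap a gene on the opposite strand, and reads of the partners cannot be told apart where counting ignores strand, which the sources used here do not say. The antisense partners that were among the features had 10 UMIs (4930526L06Rik, beside Ms4a1) and 19 UMIs (Gm19261, beside Ms4a6b).

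Ms4a4b and Ms4a4c are alike in sequence near their start sites, as are Ms4a6b and Ms4a6c. The sequence before these sites is shown because Ms4a4b and Ms4a4c were highest in different classes. Ms4a6b was also found in T cells, where Ms4a6c was low, though both were high in monocytes. Promoters were matched for 6 of the 8 members in RefSeq on GRCm38.p6, not for Ms4a1 and Ms4a6d. The first start listed for each gene was used. For Ms4a4c (11407661) and Ms4a6b (11518559) it lies well inside the GENCODE gene, which begins at 11404770 and 11516512. Motif positions depend on the start used. The 250 bases before the start are printed 5′ to 3′ on the strand of the gene for Ms4a4b (chr19:11443308-11443557, plus strand), Ms4a4c (chr19:11407411-11407660, plus), Ms4a6b (chr19:11518309-11518558, plus), Ms4a6c (chr19:11469118-11469367, plus) and Ms4a7 (chr19:11336147-11336396, minus). Capitals mark matches on either strand to 2 motifs, GGAAGT, a core bound by ETS family factors, and GAAANNGAA, a site for interferon regulatory factors.
Ms4a4b: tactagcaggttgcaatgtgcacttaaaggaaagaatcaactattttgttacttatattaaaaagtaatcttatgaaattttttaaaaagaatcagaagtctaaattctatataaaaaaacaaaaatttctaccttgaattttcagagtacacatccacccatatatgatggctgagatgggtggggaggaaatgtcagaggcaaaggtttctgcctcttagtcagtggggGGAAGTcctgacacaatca
Ms4a4c: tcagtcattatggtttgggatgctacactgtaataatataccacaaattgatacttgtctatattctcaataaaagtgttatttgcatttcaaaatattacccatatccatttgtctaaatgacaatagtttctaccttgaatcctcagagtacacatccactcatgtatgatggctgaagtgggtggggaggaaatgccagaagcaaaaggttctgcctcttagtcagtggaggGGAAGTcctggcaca
Ms4a6b: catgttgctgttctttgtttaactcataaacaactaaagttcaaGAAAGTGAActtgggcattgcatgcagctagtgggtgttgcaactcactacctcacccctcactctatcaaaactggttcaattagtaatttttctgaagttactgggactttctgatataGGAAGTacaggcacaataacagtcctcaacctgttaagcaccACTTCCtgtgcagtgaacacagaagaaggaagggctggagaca
Ms4a6c: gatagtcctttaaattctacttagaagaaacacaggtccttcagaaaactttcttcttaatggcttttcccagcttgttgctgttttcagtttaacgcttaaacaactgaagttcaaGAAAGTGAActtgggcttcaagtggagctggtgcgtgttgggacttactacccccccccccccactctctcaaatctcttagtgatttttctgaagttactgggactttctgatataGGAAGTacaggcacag
Ms4a7: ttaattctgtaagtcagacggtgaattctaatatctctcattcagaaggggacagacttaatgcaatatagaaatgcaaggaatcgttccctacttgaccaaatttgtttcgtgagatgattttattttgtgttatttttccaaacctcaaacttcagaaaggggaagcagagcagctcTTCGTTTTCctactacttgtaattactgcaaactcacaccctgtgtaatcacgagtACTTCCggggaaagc
In the best local alignment of the windows, which ran to 50 bases after the start, Ms4a4b and Ms4a4c were identical at 162 of 183 aligned positions (88.5%), and Ms4a6b and Ms4a6c at 182 of 221 (82.4%). GGAAGT was in all 5 printed promoters and not in that of Ms4a4a, against 19.7% of all 32851 promoters of the same length. It lay 19 bases before the start in Ms4a4b, 15 in Ms4a4c, 16 in Ms4a6c, 85 and, on the opposite strand, 43 in Ms4a6b, and 15 on the opposite strand in Ms4a7. GAAANNGAA was in Ms4a6b (206 bases before the start), Ms4a6c (133) and, on the opposite strand, Ms4a7 (71), against 7.13% of all promoters, and no match of one motif overlapped a match of the other. In both similar pairs the matches lay inside the aligned stretches, so they are not independent of each other. These are matches of letters, and no factor binding was measured.

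Similar transcripts can also share reads. Of 50-base windows of the annotated transcripts, 135 were shared by Ms4a4b and Ms4a4c (7.73% of those of Ms4a4c), 117 by Ms4a6b and Ms4a6c (5.85% of those of Ms4a6c) and 40 by Ms4a6b and Ms4a6d (2.31% of those of Ms4a6d). No other pair of members shared a window. How reads from shared stretches were assigned is not given in the sources used here, so levels of these 5 genes carry that uncertainty.

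The median cell had 23132 gene UMIs (range 1027 to 215512), 4320 genes and 3.65% mitochondrial UMIs, and all 4236 cells also had spatial barcode UMIs. Cells were put into classes by UMIs of marker lists per 10000 UMIs of the cell, with no Ms4a gene on any list. The classes are ranges of marker levels and not cell types as such: of 3178 monocyte, intermediate, macrophage and ungated cells, 237 lay close to the upper C1q threshold of 80 UMIs per 10000 and 140 to the monocyte threshold of 20, and 69 of all 4236 cells lay close to the T cell threshold of 10. They held 2135 macrophage-gated cells (high in the complement genes C1qa, C1qb and C1qc), 427 monocyte-gated, 271 intermediate cells (both C1q and monocyte genes), 50 nonclassical monocyte-gated, 217 CD8 T, 92 CD4 T, 78 regulatory T (Treg), 72 other T, 71 NK, 14 B, 22 cDC1, 124 cDC2, 41 migratory DC, 12 pDC and 37 melanoma-gated cells. Another 228 cells that passed the gates of more than 1 lineage were left out, and 345 passed none. Median depth ran from 4573 UMIs in CD4 T cells to 31727 in macrophages and 89537 in melanoma cells. The median B cell had 64.7 UMIs of the B list per 10000, and the median CD8 T cell 71.6 of the T list. The median macrophage had 174 of the C1q list and 0 of the T list. These lists set the gates, so the values describe the selection and are no check of the classes.

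Levels are given as UMIs of a gene per 1000000 gene UMIs summed over the cells of a class (CPM), with exact 95% Poisson intervals. With 1 library these intervals cover counting error only and not differences between tumours, so no test was possible and a difference is described by its ratio. Barcodes too poor to be cells held free RNA of the members, at 1083 CPM for Ms4a7, 492 for Ms4a6c, 368 for Ms4a6d, 218 for Ms4a6b, 212 for Ms4a4c, 62.8 for Ms4a4b, 1.17 for Ms4a4a and 0.584 for Ms4a1. Low levels in other classes are therefore read beside the share of free RNA estimated for each class from genes it should lack. CPM of different members are not compared, since capture and the assignment of reads can differ between genes.

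The members fell into lymphocyte and myeloid groups, and several shared classes. Ms4a1 was in B cells, Ms4a4b in T and NK cells and Ms4a6b in T cells and monocytes. Ms4a4c, Ms4a6c and Ms4a6d were in myeloid cells and highest in monocytes, with Ms4a4c also in NK and B cells. Ms4a7 was in macrophages, and Ms4a4a was sparse and myeloid. The heat map of the members by class shows this split.

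**Figure D1:**
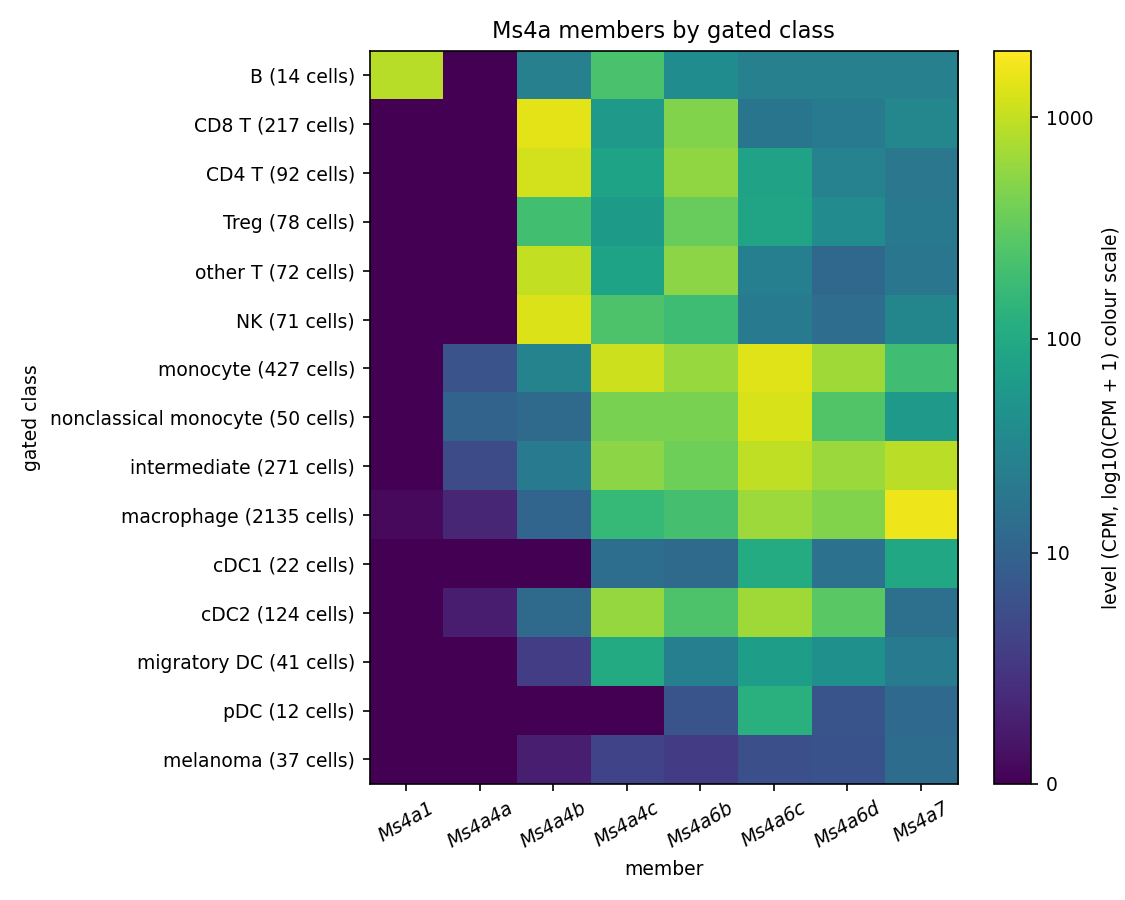
Level of the 8 members (columns) in each gated class (rows, with the number of cells), as CPM on a log10(CPM + 1) colour scale, to be read down a column. Ms4a1 is bright in B cells, Ms4a4b in T and NK cells and Ms4a7 in macrophages and intermediate cells.

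Among the lymphocyte members, Ms4a1 stood at 881 CPM (683 to 1119) in B cells, with UMIs in 14 of 14 cells and in 57.1% of them after each cell was thinned to 1000 UMIs. It had 16 UMIs in all macrophages, or 0.223 CPM, and 0 in every other gated class, among them 459 T cells, where 0 UMIs allow up to 0.654% of cells with 1. Against the floor of 3 counts over all T cells, Ms4a1 was 1378-fold higher in B than in T cells, counting error in B cells aside. It was 3945-fold (2261 to 7293) higher in B cells than in macrophages. With 67 UMIs in 14 cells, its level rests on few molecules, 16.4% of them from 1 cell.

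Ms4a4b, the T cell member, was highest in CD8 T cells at 1460 CPM (1415 to 1506) and in NK cells at 1352 (1258 to 1451), which were not separated by counting error (ratio 1.08, 0.999 to 1.17). CD4 T cells followed at 1189 CPM (1107 to 1274) and other T cells at 1004 (911 to 1103). Treg cells stood far below them at 201 CPM (172 to 233), and no other class was above 29.3 CPM. UMIs of Ms4a4b were in 98.6% of CD8 T cells, 100% of NK cells, 90.2% of CD4 T cells and 51.3% of Treg cells, and in 79.7%, 69.0%, 59.8% and 11.5% of them after thinning. In melanoma cells, which should lack the gene, the share was 5.41% at a far greater depth and 0 after thinning.

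Ms4a6b was also found in T cells, beside monocytes. It stood at 566 CPM (510 to 626) in CD4 T cells, 530 (463 to 603) in other T cells, 468 (442 to 494) in CD8 T cells, 341 (304 to 382) in Treg cells and 190 (156 to 229) in NK cells. CD4 T cells were not separated from other T cells, nor other T cells from CD8 T cells, while the interval of Treg cells lay below that of CD8 T cells. CD4 T cells were also not separated from monocytes at 618 CPM (ratio of monocytes over CD4 T cells 1.09, 0.982 to 1.22). UMIs of both Ms4a4b and Ms4a6b were found in 200 of 217 CD8 T cells and 76 of 92 CD4 T cells. Of 78 Treg cells 33 had both, 33 only Ms4a6b and 7 only Ms4a4b, while of 71 NK cells 42 had both, 29 only Ms4a4b and 0 only Ms4a6b. The 2 members thus parted in opposite ways in Treg and NK cells.

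**Figure D2:**
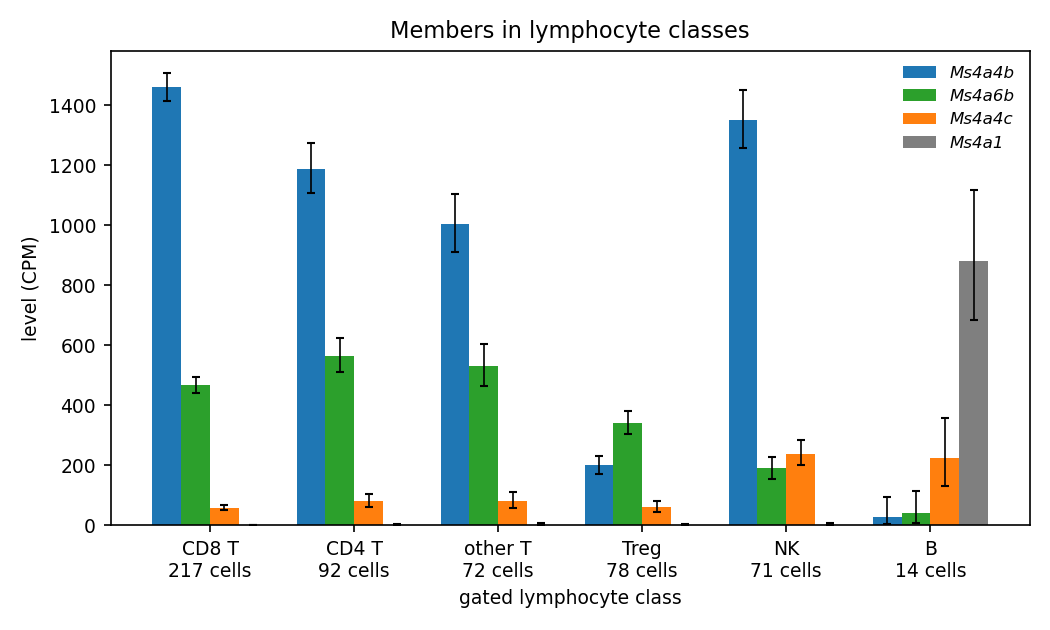
Level in CPM of Ms4a4b, Ms4a6b, Ms4a4c and Ms4a1 (bars) in 6 gated lymphocyte classes, with exact 95% Poisson intervals of the counts. Ms4a4b goes from 1460 in CD8 T cells to 201 in Treg cells, Ms4a6b is lowest of the T and NK classes in NK cells at 190, and Ms4a1 has a visible bar in B cells only among these 6 classes.

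Between lymphocyte classes a member was counted as past the threshold when its ratio was at least 1.5 to either side, among genes with at least 30 UMIs over both classes and 3 expected in the smaller. In Treg over CD4 T cells 2 of 6 members compared were past it, both lower, against 26.4% of all genes compared. These were Ms4a4b with a ratio of 0.169 (0.143 to 0.199) and Ms4a6b with 0.603 (0.517 to 0.704). The other 4 were within 1.5-fold, and 49.3% of the Ms4a6c UMIs of Treg cells came from 1 cell. In NK over CD8 T cells 3 of 6 were past it, against 34.9% of all genes. Ms4a4c was higher in NK cells, at 239 against 59.0 CPM and a ratio of 4.05 (3.20 to 5.13), Ms4a6b was lower with 0.406 (0.330 to 0.494), and Ms4a6d was lower with 0.625, an interval of 0.258 to 1.31 that spans equality. Free RNA estimated for CD8 T cells gives Ms4a7 24.4 CPM there, beside a measured 32.8.

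In B over T cells only 3 members had enough counts, and all 3 were past 1.5-fold, against 56.6% of all genes compared. Ms4a4c was higher in B cells, at 224 CPM (130 to 358) against 64.6 and a ratio of 3.46 (1.99 to 5.64). Ms4a4b was at 0.0230 (0.00279 to 0.0832) and Ms4a6b at 0.0850 (0.0175 to 0.249) of the T cell level, from 2 and 3 UMIs in the B cells. Of the B cell receptor and coreceptor list, 3 of 10 genes could be compared between B and T cells. All were higher past 1.5-fold in B cells, against 10% of all genes higher. But Cd79a (3155 CPM), the signalling chain of the receptor, and Ighm (1302 CPM, with 64.6% of its UMIs in 1 cell), the chain of IgM, were used by the gate. Cd81, a coreceptor partner outside the gate, stood at 1.57 (0.890 to 2.57).

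CD8 T cells fell mostly into 2 clusters, drawn without Ms4a genes. Cluster 18 (98 cells) was high in the checkpoint and activation genes Tnfrsf9 (432 CPM), Lag3 (450) and Pdcd1 (144), and cluster 15 (118 cells) in Il7r (168) and Tcf7 (144), genes of naive, memory and progenitor T cells. Ms4a4b stood at 1298 CPM (1249 to 1349) in cluster 18 and 1958 (1853 to 2067) in cluster 15, a ratio of 0.663 (0.620 to 0.709). Ms4a6b was at 343 (318 to 370) against 849 (781 to 922), a ratio of 0.404 (0.361 to 0.452). Of 6 members compared 4 were past 1.5-fold, all lower in cluster 18, against 49.5% of all genes. Those were Ms4a4b, Ms4a6b, Ms4a6c (0.533, 0.292 to 0.999) and Ms4a7 (0.643, 0.407 to 1.03). Ms4a6c was at 15.2 and 28.5 CPM in the 2 clusters and Ms4a7 at 28.9 and 45.0, beside 11.1 and 24.4 CPM estimated from free RNA for all CD8 T cells. The X inactivation transcript Xist stood at 293 CPM and the reporter dsredexpress1 at 124 CPM in cluster 18, with UMIs in 35.7% and 37.8% of its cells, and both were at 0 in cluster 15. Median depth was 14940.5 against 5615.5 UMIs. Their part in the Ms4a difference was not tested.

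Between T cells and macrophages all 7 members compared were past 1.5-fold, against 53.7% of all genes, with 2 higher in T cells and 5 lower. Ms4a4b was 105-fold (97.6 to 114) higher in T cells, at 1143 against 10.9 CPM and 94.5-fold to 238-fold under the alternative settings, and Ms4a6b 2.18-fold (2.08 to 2.28), at 464 against 213. Ms4a4c had a ratio of 0.396 (0.352 to 0.443), or 0.233 with cells thinned to 1000 UMIs, Ms4a6c of 0.0605, Ms4a6d of 0.0543 and Ms4a7 of 0.0168 (0.0140 to 0.0200). Ms4a4a had 0 UMIs in T cells and was 1.94-fold lower there against the floor of 3 counts, counting error in macrophages aside. The 27.3 CPM of Ms4a7 in T cells compare with 23.9 CPM estimated from free RNA, and with free RNA subtracted the ratio was 0.00222. The members' median log2 ratio was -1.34, beside 0.04 for all genes. The 5 costimulation genes of the list fixed for T cells were all higher past 1.5-fold in T cells than in macrophages, against 26.1% of all genes higher. Among them Tnfrsf18, which encodes GITR, was 113-fold higher, Tnfrsf4 (OX40) 137-fold and Cd28 73.9-fold. Cd4 and Cd8a, the other 2, also set the T subsets.

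Of the myeloid members, Ms4a4c was highest in monocytes at 1110 CPM (1081 to 1139), then cDC2 at 607 (577 to 639), intermediate cells at 539 (520 to 558) and nonclassical monocytes at 437 (373 to 508). Macrophages were at 163 CPM (160 to 166). This was below NK cells at 239 (201 to 283) and B cells at 224 (130 to 358), the B cells from 17 UMIs and not separated from macrophages. Monocytes stood above cDC2 by 1.83-fold (1.72 to 1.94), so the first place was not within counting error. UMIs of Ms4a4c were in 97.4% of monocytes and 76.7% of macrophages, and in 60.0% and 12.7% after thinning, against 10.8% and 0 in melanoma cells.

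Ms4a6b, Ms4a6c and Ms4a6d were also highest in monocytes among the myeloid classes. Ms4a6c stood at 1395 CPM (1362 to 1428) in monocytes, 1253 (1144 to 1370) in nonclassical monocytes, 959 (934 to 985) in intermediate cells, 680 (647 to 714) in cDC2 and 655 (649 to 661) in macrophages. Monocytes were above nonclassical monocytes by 1.11-fold (1.01 to 1.22), while cDC2 and macrophages were not separated (1.04, 0.988 to 1.09). Ms4a6d was at 670 CPM (648 to 694) in monocytes and 642 (621 to 662) in intermediate cells, not separated from each other, and at 467 (462 to 472) in macrophages, 284 (263 to 306) in cDC2 and 256 (208 to 312) in nonclassical monocytes. Ms4a6b was at 618 CPM (597 to 641) in monocytes, 437 (373 to 508) in nonclassical monocytes, 372 (357 to 388) in intermediate cells, 237 (218 to 258) in cDC2 and 213 (209 to 216) in macrophages. Ms4a6d thus differed from Ms4a6c in its place for nonclassical monocytes.

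Ms4a7 ran the other way. It stood at 1620 CPM (1611 to 1630) in macrophages, 910 (886 to 934) in intermediate cells, 196 (184 to 209) in monocytes and 59.4 (37.7 to 89.2) in nonclassical monocytes. All of these were separated, macrophages from intermediate cells by 1.78-fold (1.73 to 1.83). UMIs were in 98.9% of macrophages, 81.2% of intermediate cells and 33.7% of monocytes, and in 72.0%, 39.1% and 9.37% after thinning. The shares in cells that should lack it were 25.3% in CD8 T cells and 40.5% in the deep melanoma cells, and 2.76% and 0 after thinning. The 13.8 CPM in melanoma cells compare with 13.3 CPM estimated from free RNA.

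Ms4a4a was rare, with 185 UMIs over all cells. It stood at 10.3 CPM in nonclassical monocytes (4 UMIs, 2.82 to 26.5), 6.02 in monocytes (30 UMIs, 4.06 to 8.59), 4.73 in intermediate cells (28 UMIs, 3.14 to 6.84) and 1.24 in macrophages (89 UMIs, 0.998 to 1.53). The first 2 were not separated (1.72, 0.440 to 4.88). It had 2 UMIs in cDC2 and 0 in every other gated class.

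In macrophages over monocytes 6 of 7 members compared were past 1.5-fold, 1 higher and 5 lower, against 47.1% of all genes. The members' median log2 ratio was -1.43, beside 0.18 for all genes. Ms4a7 was 8.27-fold (7.76 to 8.82) higher in macrophages. Lower were Ms4a4c at 0.147 (0.142 to 0.152), Ms4a4a at 0.206 (0.135 to 0.324), Ms4a6b at 0.344 (0.331 to 0.358), Ms4a4b at 0.371 (0.310 to 0.446) and Ms4a6c at 0.469 (0.458 to 0.481). For Ms4a4b 5.83 of the 10.9 CPM in macrophages were estimated from free RNA, and its ratio was 0.184 with free RNA subtracted, 0.182 with clusters in place of gates and 0.202 with gate thresholds divided by 2. The free RNA share of macrophages was estimated from the T cell list, which summed to 45.6 CPM over all of them. It summed to 612 CPM in the 59 cells of 1 cluster, so the estimate also counts T cell RNA of those cells. Ms4a6d at 0.697 (0.672 to 0.722) was within 1.5-fold, and just past it when free RNA was subtracted (0.657). The value for Ms4a7 was 17.6 with the gate thresholds multiplied by 2.

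Split at the intermediate cells, the difference in Ms4a7 lay mostly in the first step. In intermediate cells over monocytes 3 of 7 were past 1.5-fold, against 27.9% of all genes: Ms4a7 with 4.64 (4.34 to 4.98), Ms4a4c with 0.486 (0.465 to 0.507) and Ms4a6b with 0.602 (0.569 to 0.636). In macrophages over intermediate cells 5 of 7 were past it, against 22.7% of all genes: Ms4a7 with 1.78, Ms4a4c with 0.303 (0.291 to 0.315), Ms4a4a with 0.262 (0.170 to 0.417), Ms4a4b with 0.514 (0.425 to 0.626) and Ms4a6b with 0.572 (0.547 to 0.598). Ms4a6c had ratios of 0.688 and 0.682 in the 2 steps, each within 1.5-fold.

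Monocyte-, intermediate- and macrophage-gated cells were also ordered by their C1q level into 10 bins of 283 or 284 cells. Ms4a7 was higher at every step, from 165 CPM in the bin with a median of 1.06 C1q UMIs per 10000 through 506, 1060 and 1376 to 2203 CPM in the bin with a median of 243. Ms4a4c stood at 1139, 726 and 197 CPM in the first 3 bins and between 160 and 206 in the others. Ms4a6b was at 642 CPM in the first bin, 165 in the third and 277 in the last. In the same 3 bins Ms4a6c was at 1433, 516 and 783 CPM and Ms4a6d at 626, 436 and 515. Ms4a6b, Ms4a6c and Ms4a6d were thus lower in the third bin than at either end. Ms4a4c was not, with 189 CPM in the last bin. Macrophage-gated cells made up 219 of the 284 cells of the third bin and 252 to 276 of the cells in each bin after it, so Ms4a7 also differed along C1q among mostly macrophage-gated cells. The depth of the bins ran from a median of 10600 to 38002 UMIs.

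**Figure D3:**
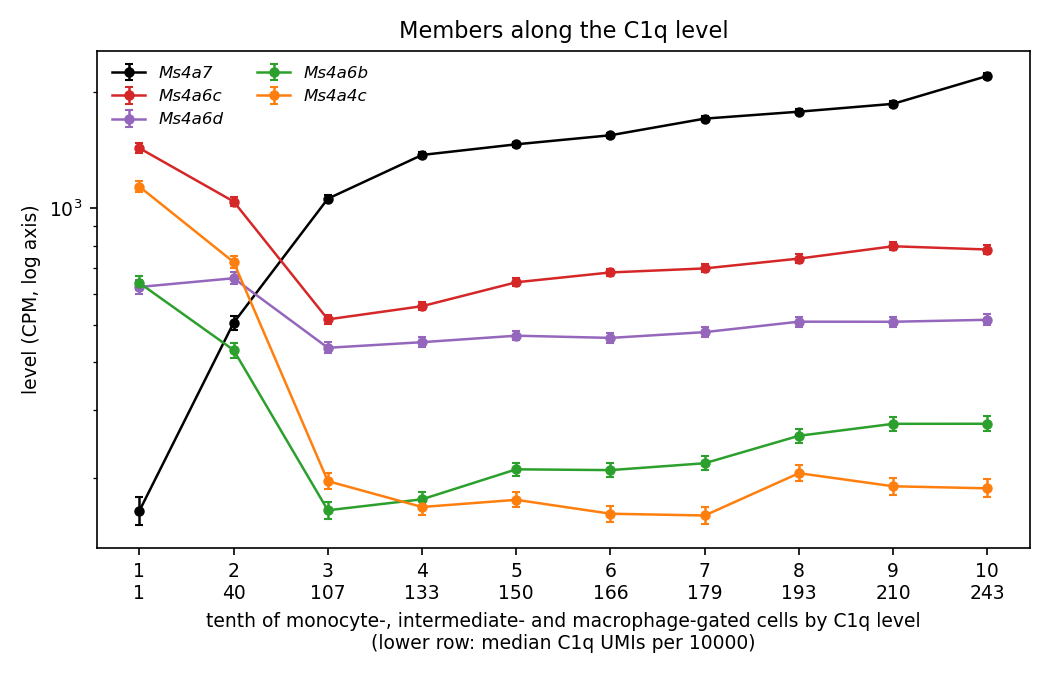
Level in CPM (log axis) of 5 members in 10 bins of monocyte-, intermediate- and macrophage-gated cells ordered by C1q level, with exact 95% Poisson intervals. Ms4a7 goes up from 165 to 2203 across the bins, while the other 4 have their lowest level between the third and the seventh bin.

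Macrophages were also split into 10 clusters of at least 20 cells, again drawn without Ms4a genes. Ms4a7 ranged 3.58-fold over them, from 580 CPM (522 to 642) in cluster 13 to 2073 in cluster 3. Ms4a6d ranged 2.42-fold, Ms4a6c 2.59-fold, Ms4a4c 4.26-fold and Ms4a6b 5.44-fold. The order of the clusters differed by member, as the plot of the macrophage clusters shows.

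Cluster 10 (138 cells) was led by interferon-response genes, among them Cxcl10 (2952 CPM) and Ifit3 (325). Ms4a4c stood there at 416 CPM (397 to 435) against 147 in the other macrophages, a ratio of 2.83 (2.69 to 2.98), and Ms4a6b at 368 (350 to 386) against 203, a ratio of 1.81 (1.72 to 1.91). Ms4a6c was at 1.49 (1.44 to 1.54), Ms4a6d at 1.33 (1.27 to 1.38) and Ms4a7 at 1.03 (1.00 to 1.05). Of 7 members compared 3 were past 1.5-fold, all higher, against 19.7% of all genes. The third, Ms4a4a at 1.53 (0.640 to 3.17), rested on 8 UMIs.

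Cluster 7 (290 cells) was led by Ifnb1, the heat shock genes Hspa1b (538 CPM) and Hspa1a and the hypoxia-responsive gene Adm, with the glucose transporter Slc2a1 at 616 CPM. Of 7 members 4 were past 1.5-fold there, all lower, against 38.2% of all genes: Ms4a6b at 0.453 (0.422 to 0.486), Ms4a6c at 0.536 (0.517 to 0.557), Ms4a4c at 0.594 (0.553 to 0.638) and Ms4a4b at 0.644 (0.484 to 0.842). Ms4a7 (0.792) and Ms4a6d (0.875) were within it.

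Cluster 13 held 20 macrophage-gated cells high in Ear2, Fn1 and Retnla. Of 6 members 5 were past 1.5-fold, all lower, against 30.8% of all genes, with Ms4a6b at 0.316 (0.228 to 0.425), Ms4a7 at 0.356 (0.320 to 0.394), Ms4a6d at 0.536, Ms4a6c at 0.639 and Ms4a4b at 0.432 (0.0889 to 1.27) from 3 UMIs. Of its Ms4a7 UMIs 27.6% came from 1 cell.

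Ms4a4b in macrophages was concentrated in cluster 14 (59 cells), at 125 CPM (112 to 138), against 2.35 to 36.7 in the other clusters. The T cell list summed to 612 CPM there and to between 2.64 and 105 in the other clusters, and the leading genes were the T cell genes Ctla4 and Gimap3. Ms4a4b and T cell RNA therefore moved together in these cells, and the part of T cell RNA in the Ms4a4b of macrophages was not tested.

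**Figure D4:**
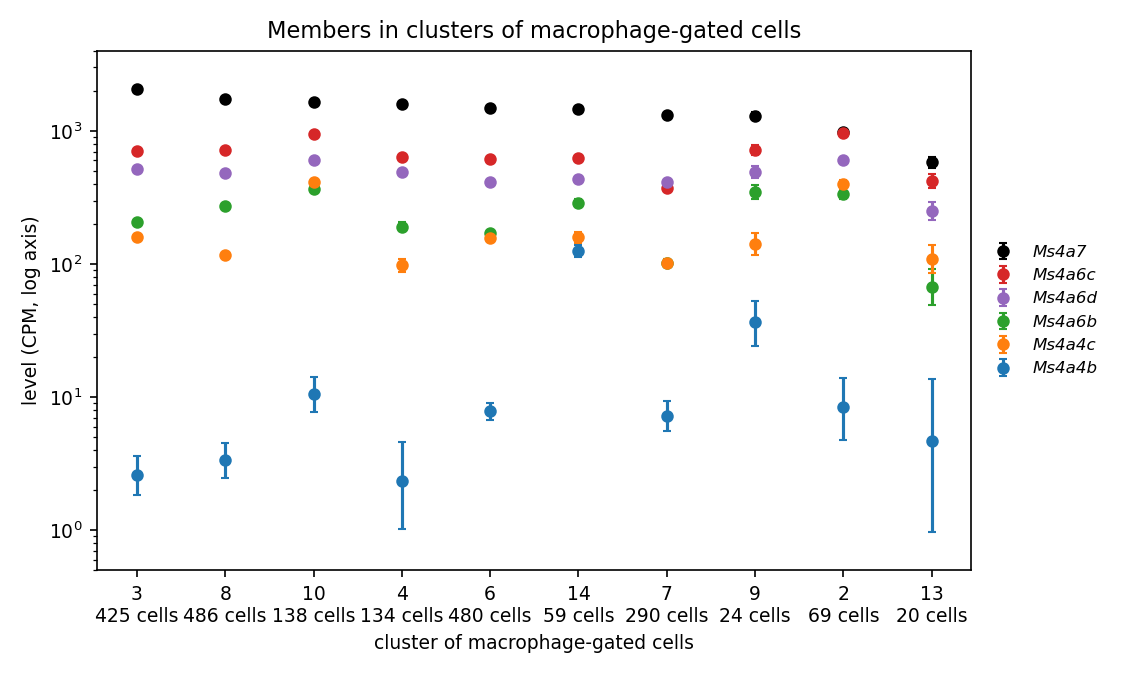
Level in CPM (log axis) of 6 members in 10 clusters of macrophage-gated cells, ordered by Ms4a7, with exact 95% Poisson intervals. Ms4a4c and Ms4a6b peak in cluster 10 at 416 and 368, and Ms4a4b stands out in cluster 14 at 125.

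Among dendritic cells cDC2 had the highest levels of Ms4a4c, Ms4a6b, Ms4a6c and Ms4a6d. In conventional DC (cDC1, cDC2 and migratory cells summed) over monocytes all 7 members compared were lower past 1.5-fold, against 35% of all genes past it in either direction. Ratios ran from 0.0885 for Ms4a4a (2 UMIs) to 0.369 (0.348 to 0.390) for Ms4a4c, and 61 of the 114 Ms4a7 UMIs in these DC were in 1 cell. With gate thresholds multiplied by 2, 5 of 6 were past it and Ms4a4b was not, at 0.867 against 0.300. With them divided by 2 the Ms4a4a ratio was 0.165. In cDC2 over cDC1 6 of 6 were past it, against 36.5% of all genes, with 5 higher in cDC2. Ms4a4c was 42.1-fold (22.8 to 88.1) higher, at 607 against 14.4 CPM, Ms4a6b 18.3-fold (9.57 to 40.2), Ms4a6d 17.9-fold (9.95 to 36.1) and Ms4a6c 6.37-fold (5.05 to 8.16). Ms4a4b had 31 UMIs in cDC2 and 0 in cDC1, 2.99-fold higher in cDC2 against the floor of 3 counts, counting error in cDC2 aside. Ms4a7 was the 1 lower member, but 61 of its 63 UMIs in cDC1 were in 1 cell. In cDC2 over migratory DC 5 of 6 were higher, against 56% of all genes past 1.5-fold, with Ms4a6c at 9.78 (7.30 to 13.4), Ms4a6b at 9.25 (5.72 to 16.0), Ms4a6d at 6.48 (4.47 to 9.76), Ms4a4c at 5.91 (4.63 to 7.66) and Ms4a4b at 4.27 (1.09 to 36.9) from 2 UMIs in migratory DC. Ms4a7 was at 15.4 CPM in cDC2 and 21.2 in migratory DC, within 1.5-fold.

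Cells were placed by spatial barcode through each barcode's counts relative to its share in free RNA, with at least 30 spatial UMIs and the leading barcode at 1.5 times the next. This placed 670 cells with ZC1, 601 with ZC2 and 1081 with ZC3. The plain rule, at least 10 UMIs of the leading barcode and 2 times the next, placed 76, 85 and 2207 cells.

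Within macrophages the members differed little by barcode. Ms4a7 stood at 1500 CPM (1469 to 1531) in ZC1 (192 cells), 1478 (1447 to 1508) in ZC2 (200 cells) and 1650 (1634 to 1666) in ZC3 (646 cells). In ZC1 over ZC3 1 of 6 members was past 1.5-fold, against 11.1% of all genes, and in ZC2 over ZC3 1 of 6, against 9.87%. Both times it was Ms4a4b, at 16.9 and 9.84 against 6.42 CPM, with ratios of 2.63 (2.02 to 3.41) and 1.53 (1.12 to 2.08). The T cell list summed to 83.4, 37.1 and 26.7 CPM in ZC1, ZC2 and ZC3. Of the Ms4a4b UMIs 22.2% in ZC1 and 23.3% in ZC2 were in 1 cell. Without the cluster rich in T cell genes the ratios were 1.42 and 1.37, and no member was past 1.5-fold. With the leading barcode at 2 times the next they were 10.8 and 2.66, with 1 and 2 members past it.

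In monocytes Ms4a7 was the member that was past 1.5-fold for both ZC1 and ZC2 over ZC3. It stood at 110 CPM (91.3 to 132) in ZC1 monocytes (86 cells), 107 (88.8 to 129) in ZC2 (90 cells) and 316 (286 to 348) in ZC3 (115 cells), ratios of 0.349 (0.282 to 0.430) and 0.340 (0.274 to 0.419) to ZC3. The share of monocytes with a Ms4a7 UMI was 33.7%, 34.4% and 35.7%, and 9.30%, 8.89% and 12.2% after thinning. The regions thus differed in UMIs per cell more than in cells. In each set 1 cell held a large part of the Ms4a7 UMIs, with 26.5% in ZC1, 28.4% in ZC2 and 16.9% in ZC3 monocytes. The C1q list summed to 324, 499 and 559 CPM in these cells, and its part was not tested. Ms4a4c was at 812 CPM (759 to 868) in ZC1, 1185 (1121 to 1251) in ZC2 and 1267 (1206 to 1331) in ZC3. In ZC1 over ZC3 monocytes 3 of 6 members were lower past 1.5-fold, against 18.5% of all genes past it, namely Ms4a7, Ms4a4c (0.641, 0.589 to 0.696) and Ms4a4b (0.606, 0.345 to 1.04). In ZC2 over ZC3 1 of 6 was, Ms4a7, against 14.9%. In intermediate cells Ms4a7 was at 404 CPM (367 to 443) in ZC1 (61 cells), 741 (680 to 805) in ZC2 (35 cells) and 1301 (1240 to 1364) in ZC3 (52 cells), in the same direction, with the C1q list at 10053, 11445 and 11492 CPM.

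In cDC2 Ms4a4c was at 407 CPM (356 to 463) in ZC1 (28 cells), 469 (423 to 519) in ZC2 (43 cells) and 953 (869 to 1043) in ZC3 (26 cells). Ms4a6d was at 264 (224 to 310), 194 (165 to 227) and 484 (424 to 549). In ZC1 over ZC3 2 of 4 members compared were past 1.5-fold, both lower, against 29.4% of all genes, and in ZC2 over ZC3 2 of 4, both lower, against 21.8%. Both times these were Ms4a4c (0.427 and 0.492) and Ms4a6d (0.547 and 0.401). The pan-myeloid list summed to 7630, 3922 and 1712 CPM in the 3 sets and its part was not tested. Ms4a4b in CD8 T cells stood at 1547 (1429 to 1672), 1512 (1417 to 1612) and 1371 CPM (1284 to 1462) in ZC1, ZC2 and ZC3, but the mean of the per-cell CPM had another order, with 1709, 1656 and 1900. Median depth was 5586, 9858 and 9498.5 UMIs, and no difference by barcode is read from these values.

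**Figure D5:**
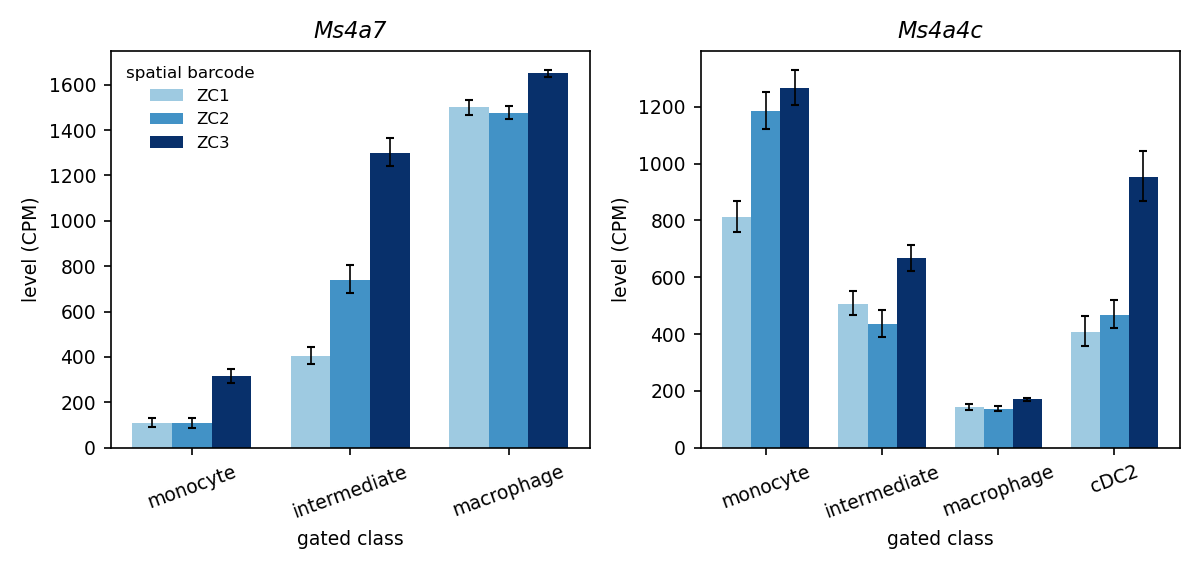
Level in CPM of Ms4a7 (left) and Ms4a4c (right) by leading spatial barcode in gated myeloid classes, with exact 95% Poisson intervals of the counts. Ms4a7 is highest in ZC3 in all 3 classes shown, from 107 in ZC2 to 316 in ZC3 monocytes, and Ms4a4c in cDC2 is 953 in ZC3 against 407 in ZC1.

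For each member the 3 genes of the most similar pattern were taken over 20 clusters of at least 20 cells, by Pearson's r of log2(CPM + 1) among 11587 genes. The clusters share 1 library and differ in depth, so r is a description. Ms4a7 was most like Trem2 (0.98) and the gate genes C1qc (0.98) and C1qb (0.97), and Ms4a4b most like Gimap5, Gimap1 and Gimap6 (each 0.97), GTPases of lymphocytes. Ms4a6c was most like Lst1, Dok3 and Tlr2 (each 0.96), and Ms4a6d most like Nectin4, Sirpb1c (each 0.97) and Milr1 (0.96). The likeness was weaker for Ms4a4a with Trem3 (0.92), Tnfsf13os (0.91) and Msrb1 (0.89), for Ms4a4c with Fam49b (0.89), Fam26f (0.84) and AB124611 (0.83), and for Ms4a6b with Gmfg (0.89), Bscl2 (0.88) and Arhgdib (0.87). Ms4a1 had too few UMIs for the rule.

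Among the members themselves Ms4a6c and Ms4a6d were the most alike over the clusters (r of 0.96), followed by Ms4a6d and Ms4a7 (0.87). The pairs with similar start-site sequence were less alike than these, with 0.33 for Ms4a6b and Ms4a6c and 0.04 for Ms4a4b and Ms4a4c. Their start-site sequences were 82.4% and 88.5% identical over the aligned stretches. Ms4a4b and Ms4a7 had the lowest value, -0.58.

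Of the other Ms4a genes, 2 had enough UMIs to compare in macrophages and monocytes, and they stood on opposite sides. Ms4a14 was 4.36-fold (2.71 to 7.52) higher in macrophages, at 14.9 against 3.41 CPM, and Ms4a8a was at 0.0477 (0.0393 to 0.0579) of the monocyte level, at 2.53 against 52.9 CPM. Ms4a4d had 32 UMIs over all cells. Ms4a2, the beta chain of the IgE receptor of mast cells and basophils, had 0, as had Ms4a13 and Ms4a18, and the 5 remaining genes had between 1 and 4. The related CD20-like genes Tmem176a and Tmem176b were highest in migratory DC, at 932 and 851 CPM, where the members were low, and had ratios of 1.16 and 1.53 (1.44 to 1.63) in macrophages over monocytes.

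From the list of myeloid receptors and partners, 8 genes could be compared in macrophages over monocytes. Of these 2 were past 1.5-fold higher and 3 lower, against 47.1% of all genes past it in either direction. Their median ratio was 0.943 beside 1.13 for all genes. Trem2, the lipid-sensing receptor, was 5.08-fold (4.66 to 5.55) higher in macrophages, at 530 against 104 CPM, and Mrc1, the mannose receptor, 3.18-fold (2.75 to 3.68). Tyrobp, which encodes the adaptor of TREM2, stood at 0.568 (0.559 to 0.577), the LPS coreceptor gene Cd14 at 0.428 (0.405 to 0.452) and the kinase gene Syk at 0.511 (0.472 to 0.555). All 8 were lower past 1.5-fold in T cells than in macrophages, against 27.7% of all genes lower. Among these Fcgr3 is on the pan-myeloid gate list. T cells that passed that gate were left out, so its T cell level is partly set by the gate. In conventional DC over monocytes 7 of 8 were lower past 1.5-fold, against 17.3% of all genes lower.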

How the data were processed

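Gene expression and spatial barcodes were counted in 1 pool of sorted tumour immune cells. The authors' deposited matrix holds raw counts of UMIs, unfiltered, made with Cell Ranger 4.0.0 on mm10 per the submitters' processing notes; its strand setting is not given in the sources used here. It held 117528298 gene UMIs in 6794880 barcodes.

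Kept cells were gated on marker lists, and cells passing gates of more than 1 lineage were left out in place of a doublet caller. Counts were summed per class, and ratios carry exact conditional binomial intervals and shares exact Clopper-Pearson intervals, all at 95%. Clustering used 2000 variable genes less the Ms4a genes (1994), 30 principal components, 15 neighbours and Leiden at resolution 1 (22 clusters; scanpy 1.11.5, Python 3.11.15, scipy 1.17.1). Free RNA was summed over 68497 barcodes with 10 to 100 UMIs. Where a class had no UMI of a gene, 3 counts served as its floor. Ratios and intervals were run on simulated Poisson counts of summed classes. These hold no differences between cells of a class, so the run cannot check the intervals for such differences. Alternatives were gate thresholds 2 times as high or 0.5 times as high, at most 5% mitochondrial UMIs, at least 2000 or 500 UMIs per cell, clusters in place of gates, other cluster resolutions, thinned counts, means of per-cell CPM and free RNA subtracted.

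Members and lists were chosen with earlier results of these data known. Named were all 8 members, the 3 most similar genes of each with at least 100 UMIs, genes of the fixed lists and, chosen after their values were seen, leading genes of clusters. The plain spatial rule left too few macrophages in ZC1 and ZC2, so cells were placed relative to free RNA. Clec7a and Ms4a20 of the lists were not analysed here.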

Additional observations from a re-analysis of the deposited data

How the results depend on the processing

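The counts of members past 1.5-fold stayed within 1.5 times of the reported ones for the 4 class comparisons under every alternative that gave a value: 4 to 7 for macrophages over monocytes, 6 to 7 for T cells over macrophages, 2 to 4 for B over T cells and 5 to 7 for conventional DC over monocytes. The number of members compared also changed. With thinned counts the values were 4 of 5, 6 of 6, 2 of 2 and 5 of 5 in the same order, and with clusters B over T cells gave 4 of 4. Of the 2 members compared in thinned B over T cells 0 were higher. The share over all genes was not computed under the alternatives. B cells gave no value at 5% mitochondrial UMIs. Of 205 single ratios none changed direction, and 3 crossed 1.5-fold: Ms4a6d in macrophages over monocytes (0.653 with clusters in place of gates, 0.657 with free RNA subtracted) and Ms4a4b in conventional DC over monocytes (0.867 with gate thresholds 2 times as high). The following ratios moved by over 2 times. In T cells over macrophages they were Ms4a7 (0.00222 to 0.0234), Ms4a4b (94.5 to 238) and Ms4a4a, set at the floor of 3 counts (0.143 to 0.612). In B over T cells they were Ms4a4b (0.0194 to 0.170) and Ms4a6b (0.0560 to 0.367). In conventional DC over monocytes they were Ms4a7 (0.0912 to 0.456) and Ms4a4b (0.296 to 0.867). In macrophages over monocytes they were Ms4a7 (7.33 to 17.6) and Ms4a4b (0.182 to 0.397). The cause was not tested. With T subsets pooled, the leading class was the same for 8 of 8 members with clusters at resolution 1 or 2. It was the same for 7 at 0.5, where Ms4a4a led in monocytes. With this pooling Ms4a4b led in NK cells in the gates and in every clustering, so the first place of CD8 T cells was not checked.

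By barcode, with alternatives chosen after seeing the data, leaving out the cluster rich in T cell genes gave 0 members for ZC1 and 0 for ZC2 over ZC3 in macrophages, and 2 times the next barcode gave 1 and 2, with Ms4a4b at 10.8 and 2.66. The 14 B cells and 12 pDC limit what can be compared. No paired analysis was possible because the 2 samples are libraries of the same cells.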
